A study of Mus musculus with 15 samples.

Results

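Loss of *Casp2* in Myc-driven lymphoma was examined by RNA sequencing of 3 EμMyc/Casp2-/- lymphomas and 4 EμMyc lymphomas. These were 7 of the 15 tumors in the series. Each library came from the cervical lymph node tumor of a different C57BL/6 mouse. All 7 mice carried the EμMyc transgene, in which an immunoglobulin heavy chain enhancer drives *Myc* in B lineage cells, and the controls are labelled wild type for *Casp2*. Tumors EuMyc614, EuMyc743b and EuMyc829 arose at 13 weeks and EuMyc835 at 19 weeks. The Casp2-null tumors EuMycC2ko215, EuMycC2ko239 and EuMycC2ko245 arose at 9, 8 and 12 weeks. EuMycC2ko215 came from the only female among them, so sex and that tumor cannot be told apart. The other 8 tumors, 4 *Th-MYCN* and 4 *Th-MYCN/Casp2-/-* neuroblastomas of the nervous system, entered the same statistical model and are used below only for contrast.

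Caspase-2 is a protease that is activated in the PIDDosome, a complex with the adaptor Raidd and the scaffold Pidd1, and it is known for acting on cells with surplus centrosomes or an abnormal chromosome number. In EμMyc mice it acts as a tumor suppressor. Myc itself drives ribosome production, growth and division, and EμMyc lymphomas range from pre-B to mature B cell stages. The data were therefore read for genes that separated every null tumor from every control, for genes carried by a single tumor, and for differences between whole chromosomes.

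*Casp2* reads were lower in each null tumor but not absent. Its level was 167, 125, 203 and 139 CPM (a read count scaled to the TMM-normalized library total) in the EμMyc tumors and 58.0, 51.9 and 76.1 CPM in the null tumors. The groups did not overlap, and the log2 fold change was -1.35 ± 0.27 (SE), with a false discovery rate (FDR) of 4.00e-04 by edgeR's likelihood ratio test (LRT) and of 0.0536 by its quasi-likelihood F test (QLF). Counts per gene do not show which exons the remaining reads cover.

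The lymphoma libraries held 4940464 to 13093667 reads on genes. EuMycC2ko215 was the shallowest, and 11.2% of its reads were unmapped, against 3.15% to 3.89% in the other 6 lymphomas. A count of 3 reads, taken here as the floor for counting error, corresponds to 0.236 to 0.586 CPM in the lymphomas. Reads divided almost evenly between the strands (48.8% to 49.0% in the column used), so a gene and an overlapping gene on the opposite strand cannot be told apart.

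A total of 170 genes rose and 45 fell in EμMyc/Casp2-/- tumors by the LRT (FDR under 0.05 and over 2-fold), which are 1.14% and 0.302% of the 14880 genes tested. The QLF, which also allows for uncertainty in the spread of each gene, called 14 higher and 7 lower (0.0941% and 0.047%), all of them within the LRT calls. The lymphomas varied more than the neuroblastomas. The common dispersion, the squared coefficient of variation between tumors of a group, was 0.229 in the 7 lymphomas and 0.106 in the 8 neuroblastomas, and the shared model used 0.156. With the lymphomas fitted alone, the LRT called 21 higher and 14 lower, and the QLF called 0 higher and 1 lower. The 1 gene was *Pitpnm2*. In that QLF fit 517 of the 12812 genes tested had an unadjusted p under 0.05, a share below 0.05. In bulk tumors a change in the share of a cell type and a change in RNA per cell cannot be told apart.

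Every Casp2-null tumor lay above every EμMyc tumor for 66 of the 170 higher genes, and below every EμMyc tumor for 26 of the 45 lower genes. Over all genes tested, 260 had this separation upward (1.75%) and 291 downward (1.96%). Of the 14 higher genes called by the QLF, 12 separated all tumors, as did 6 of its 7 lower genes.

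**Figure D1:**
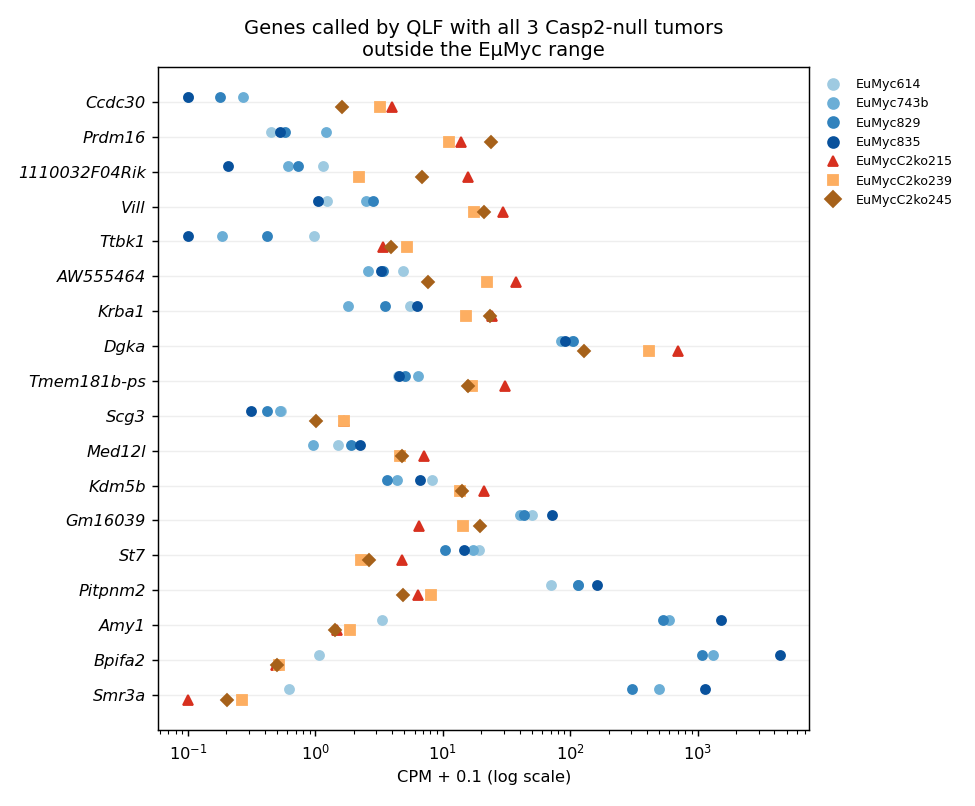
Level of the 18 genes called by the QLF with all 3 Casp2-null tumors outside the EμMyc range, in CPM plus 0.1 on a log scale, with 1 point per tumor (circles, EμMyc; other symbols, EμMyc/Casp2-/-). In *Prdm16* the null tumors sit between 11.0 and 23.8 CPM and the controls at or below 1.11 CPM, while in *Pitpnm2* the null tumors sit between 4.74 and 7.93 CPM and the controls at or above 70.5 CPM.

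*Prdm16* and *Pitpnm2* showed the clearest separation in opposite directions. *Prdm16* encodes a zinc finger transcription regulator known from haematopoietic stem cells and brown fat. It was at 0.350, 1.11, 0.472 and 0.425 CPM in the EμMyc tumors and at 13.9, 11.0 and 23.8 CPM in the null tumors, a log2 fold change of 4.75 ± 0.48 (FDR 6.77e-19 by LRT and 2.57e-04 by QLF). The control levels are close to the floor, whereas all 3 null tumors are well above it.

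*Pitpnm2* encodes a phosphatidylinositol transfer protein associated with membranes. It was at 70.5, 115, 116 and 162 CPM in the controls and at 6.25, 7.93 and 4.74 CPM in the null tumors (log2 fold change -4.19 ± 0.39, FDR 8.53e-17 by LRT and 4.33e-04 by QLF). No null tumor came near the lowest control. It was the only called gene among those named here whose call held in each of the 19 alternatives tried, with log2 fold changes from -4.39 to -3.50. *Prdm16* kept its call in 18 of 19, the exception being the QLF on the lymphomas alone (FDR 0.103).

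A further 3 genes with kept calls in 18 of the 19 alternatives had roles that are known in part. *St7*, a gene named as a suppressor of tumorigenicity, was at 19.2, 17.1, 10.3 and 14.5 CPM in controls and 4.69, 2.17 and 2.52 CPM in null tumors (log2 fold change -2.36 ± 0.33, FDR 9.58e-09 by LRT and 0.00480 by QLF). *Vill*, encoding a villin-like actin binding protein, was at 1.14, 2.40, 2.76 and 0.956 CPM in controls and 29.7, 17.5 and 20.8 CPM in null tumors (log2 fold change 3.62 ± 0.47, FDR 2.32e-10 by LRT and 0.00331 by QLF). *Krba1*, encoding a protein with a KRAB-A domain, was at 5.42, 1.71, 3.39 and 6.16 CPM in controls and 24.2, 15.2 and 23.4 CPM in null tumors (log2 fold change 2.33 ± 0.37, FDR 4.53e-07 by LRT and 0.0183 by QLF). In each of these genes the null tumors lie within a narrow range of each other and clear of the controls.

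The promoters of 3 genes that separated all tumors are shown because Myc, which drives every one of these lymphomas, binds the E-box CACGTG. They run from 250 bases before to 50 bases after the outermost listed promoter start (GRCm38.p6), 5′ to 3′ on the strand of the gene. The E-box is in capitals. Each of these starts lies inside the RefSeq bounds of its gene. Those bounds have their 5′ ends at 154637360 for *Prdm16*, 124249910 for *Pitpnm2* and 17693901 for *St7*. They are *Prdm16* (chr4:154636824-154637123, minus strand), *Pitpnm2* (chr5:124249711-124250010, minus strand) and *St7* (chr6:17693744-17694043, plus strand).
Prdm16: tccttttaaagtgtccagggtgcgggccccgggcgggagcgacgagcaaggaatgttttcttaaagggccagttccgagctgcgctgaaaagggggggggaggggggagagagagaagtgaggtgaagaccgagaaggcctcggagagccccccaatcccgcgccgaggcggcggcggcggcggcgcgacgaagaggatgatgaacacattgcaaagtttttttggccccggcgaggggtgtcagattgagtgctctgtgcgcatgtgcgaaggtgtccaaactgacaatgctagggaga
Pitpnm2: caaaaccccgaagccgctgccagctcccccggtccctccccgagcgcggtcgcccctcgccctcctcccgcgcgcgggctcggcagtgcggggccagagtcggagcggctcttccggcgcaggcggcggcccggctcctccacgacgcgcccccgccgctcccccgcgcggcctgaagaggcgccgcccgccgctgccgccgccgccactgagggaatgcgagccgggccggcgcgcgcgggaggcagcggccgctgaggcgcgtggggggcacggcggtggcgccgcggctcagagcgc
St7: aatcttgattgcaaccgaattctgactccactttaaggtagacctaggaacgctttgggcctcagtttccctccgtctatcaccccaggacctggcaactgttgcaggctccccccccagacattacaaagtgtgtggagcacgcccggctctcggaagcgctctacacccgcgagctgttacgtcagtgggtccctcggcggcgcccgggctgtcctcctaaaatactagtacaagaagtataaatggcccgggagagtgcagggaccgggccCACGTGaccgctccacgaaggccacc
The *St7* window holds 1 E-box, and the other two hold none. Of the 21 genes called by the QLF, 19 have promoters in the table and 2 of these (10.5%) hold an E-box at any listed start, against 1322 of 11649 tested genes (11.3%). The motif reads the same on both strands, and its presence is a description of the sequence only.

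Of the remaining separated genes called by the QLF, *Ccdc30*, *Ttbk1* and *Scg3* were near the floor in the controls. *Ccdc30*, encoding a coiled coil protein, was at 0, 0.171, 0.0787 and 0 CPM in controls and at 3.91, 3.09 and 1.51 CPM in null tumors. The controls held 3 reads in all, and the ratio of pooled levels was 40.2 (95% counting interval 13.8 to 195). *Ttbk1*, encoding a tau tubulin kinase, reached 0.875 CPM at most in controls and was at 3.32, 5.09 and 3.84 CPM in null tumors (log2 fold change 3.61 ± 0.52, QLF FDR 0.0174). *Scg3*, encoding a secretory granule protein, was at 0.212 to 0.437 CPM in controls and 1.56, 1.59 and 0.909 CPM in null tumors (QLF FDR 0.0255). All 3 genes are therefore present in each null tumor at low levels.

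The other separated genes differed more in how far each null tumor moved. *Dgka*, encoding a diacylglycerol kinase that dampens antigen receptor signals in T cells, was at 103, 84.6, 105 and 91.5 CPM in controls and 698, 415 and 128 CPM in null tumors (log2 fold change 2.11 ± 0.37, QLF FDR 0.0279). *AW555464* was at 2.48 to 4.72 CPM in controls and 37.5, 22.0 and 7.57 CPM in null tumors (QLF FDR 0.0279). *1110032F04Rik* was at 0.106 to 1.05 CPM in controls and 15.6, 2.09 and 6.76 CPM in null tumors (QLF FDR 0.0255). For *Dgka* and *AW555464* the highest null tumor was EuMycC2ko215, and EuMycC2ko245 lay just above the controls.

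*Kdm5b*, encoding a histone H3 lysine 4 demethylase, was at 8.05, 4.28, 3.54 and 6.48 CPM in controls and 20.9, 13.4 and 13.9 CPM in null tumors (log2 fold change 1.52 ± 0.29, QLF FDR 0.0426). *Med12l*, a paralog of a Mediator subunit gene, was at 0.855 to 2.12 CPM in controls and 7.03, 4.51 and 4.64 CPM in null tumors (QLF FDR 0.0255). The pseudogene *Tmem181b-ps* was at 4.37 to 6.24 CPM in controls and 30.7, 16.7 and 15.5 CPM in null tumors (QLF FDR 0.00510), and reads from a near-identical copy could be split with it. *Gm16039* was at 40.4 to 71.1 CPM in controls and 6.45, 14.3 and 19.4 CPM in null tumors (QLF FDR 0.0255). Of the genes called by the QLF, *Prdm16*, *Pitpnm2*, *St7*, *Gm16039*, *Med12l*, *Dgka*, *Ccdc30*, *Tmem181b-ps*, *Krba1*, *AW555464* and *Kdm5b* overlap other RefSeq genes, whose reads these counts do not separate.

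Among separated genes called by the LRT but not by the QLF, *Coro2b*, encoding a coronin, was at 8.40, 31.2, 8.19 and 9.34 CPM in controls and 1.95, 3.67 and 0.707 CPM in null tumors (FDR 3.24e-04 by LRT and 0.0793 by QLF). *Tubb3*, encoding a beta tubulin, was at 8.22, 25.4, 21.3 and 9.66 CPM in controls and 3.52, 2.42 and 6.36 CPM in null tumors (FDR 9.84e-04 by LRT and 0.102 by QLF). *Tmem136* was at 0.0787 to 2.02 CPM in controls and 3.91, 5.01 and 6.26 CPM in null tumors (FDR 1.49e-05 by LRT and 0.0755 by QLF). The lowest value of *Tubb3* among controls and its highest among null tumors differ by less than the range of the controls.

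Most higher genes were not shared by all 3 null tumors. Of the 170, 62 lay outside the EμMyc range in EuMycC2ko215 and EuMycC2ko239 and not in EuMycC2ko245, 17 in EuMycC2ko215 and EuMycC2ko245, and 8 in EuMycC2ko239 and EuMycC2ko245. A single tumor was outside for 17, which was EuMycC2ko215 for 14, EuMycC2ko239 for 2 and EuMycC2ko245 for 1. Over all genes tested that were higher on average, 5.55% lay outside in EuMycC2ko215 and EuMycC2ko239, 4.12% in EuMycC2ko215 and EuMycC2ko245, 1.66% in EuMycC2ko239 and EuMycC2ko245, 15.4% in EuMycC2ko215 alone, 4.71% in EuMycC2ko239 alone, 4.24% in EuMycC2ko245 alone and 8.64% in none, as shares of the 14880. Over these 170 genes the median log2 difference from the EμMyc mean was 3.51 in EuMycC2ko215, 1.80 in EuMycC2ko239 and 0.82 in EuMycC2ko245. Over the 45 lower genes it was -2.52, -2.11 and -1.89, so the 3 tumors were closer to each other there. Among the lower genes 7 had no null tumor outside the EμMyc range (15.9% of all tested). The other 12 lay outside in EuMycC2ko215 and EuMycC2ko239 for 3 (4.56%), in EuMycC2ko215 and EuMycC2ko245 for 1 (4.29%), in EuMycC2ko239 and EuMycC2ko245 for 3 (1.33%), in EuMycC2ko215 alone for 3 (17.3%), in EuMycC2ko239 alone for 2 (3.26%) and in EuMycC2ko245 alone for 0 (4.13%).

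**Figure D2:**
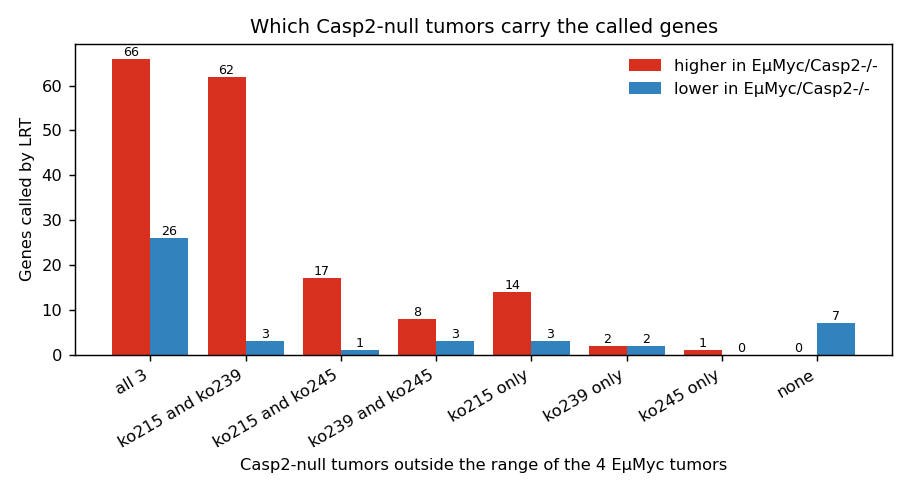
Number of genes called by the LRT (y axis), grouped by which Casp2-null tumors lie outside the range of the 4 EμMyc tumors (x axis). The bars for all 3 tumors hold 66 higher and 26 lower genes, and the bar for EuMycC2ko215 with EuMycC2ko239 holds 62 higher genes.

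EuMycC2ko215 carried most of the calls. Without it the LRT called 57 higher genes, 48 of them among the 170, and 18 lower genes, 16 of them among the 45. Of the 66 higher genes that separated all tumors, 27 kept their call without it, and so did 10 of the 26 lower ones. All 14 higher and 7 lower genes called by the QLF were still called by the LRT. With sex as a covariate, which only this female can inform among the lymphomas, there were 72 higher and 31 lower genes. Leaving out EuMycC2ko245 instead gave 458 higher genes and 88 lower ones. Across the 7 fits that each left out a tumor, 28 of the 170 higher calls and 12 of the 45 lower calls were made every time. Of these, 20 and 8 separated all tumors. The 12 include *Amy1*, *Bpifa2*, *Dcpp1* and *Dcpp3*, salivary gland genes that were high in EuMyc743b, EuMyc829 and EuMyc835 together (below). Fits that leave out 1 tumor cannot show how far such calls depend on those controls.

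**Figure D3:**
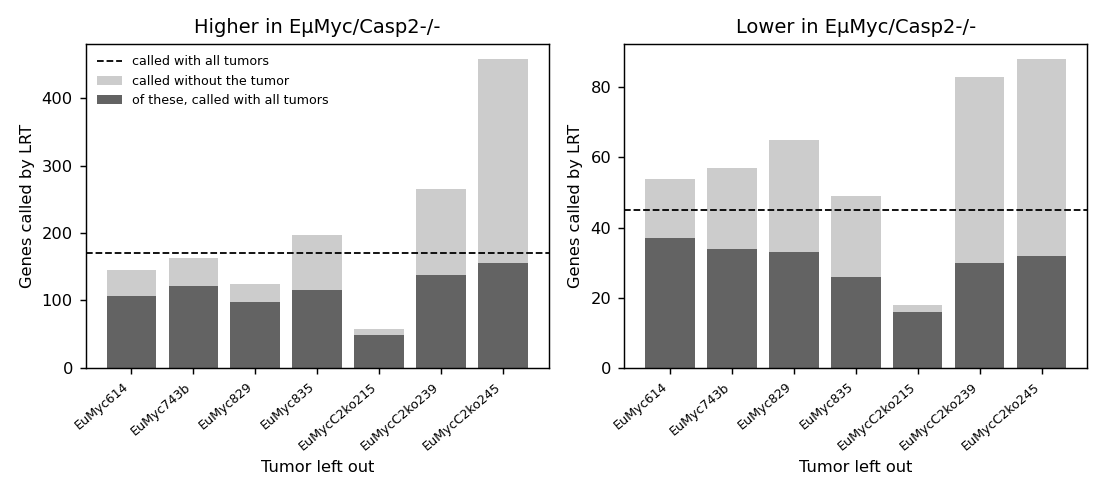
Genes called by the LRT (y axis) when each lymphoma in turn is left out (x axis), higher genes on the left and lower genes on the right. Light bars give the total, the dark part of each bar gives those also called with all tumors, and the dashed line marks the 170 higher or 45 lower calls made with all tumors. The bars without EuMycC2ko215 are the lowest, at 57 and 18.

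EuMycC2ko215 held transcripts of the thymus, both of developing T cells and of thymic epithelium. *Psmb11*, the proteasome subunit of cortical thymic epithelium, was at 37.7 CPM there and at 0.606 CPM or less in the other 6 lymphomas. *Prss16*, the thymus-specific serine protease, was at 245.4 CPM against 3.06 CPM at most, and *Foxn1*, the transcription factor that specifies thymic epithelium, at 2.54 CPM against 0 in each of the other 6. *Ptcra*, the pre-T cell receptor chain, was at 11.5 CPM there and at 0 in the other 6. *Cd8a* was at 362 CPM against 9.85 CPM at most. Summed over 17 B cell identity genes, it stood at 5952 CPM, beside 4792 to 10305 CPM in the controls.

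Lists of 12 thymocyte genes and 10 thymic epithelial genes were drawn up after these values were seen, and serve only to describe them. EuMycC2ko215 was the highest lymphoma for 12 of 12 and for 9 of 10, the exception being *Aire*, at 0 CPM there. The LRT called 5 of the 9 thymocyte genes tested and 2 of the 5 thymic epithelial genes tested, all higher (1.14% over all genes), and none of these calls held without EuMycC2ko215. Summed over the list, the thymic epithelial genes stood at 626 CPM in EuMycC2ko215 and at 7.01 to 18.3 CPM in the other 6. Of the 170 higher genes, 65 were over 4-fold higher in EuMycC2ko215 than in each of the other 6 lymphomas, as were 288 of all genes tested (1.94%). The tumor was taken from the neck, and the part of thymus transcripts in its calls was not tested beyond the fits without it.

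T cell genes were called mainly through 1 tumor, though the other null tumors also exceeded the controls for some. EuMycC2ko215 lay above every control for 20 of the 24 T cell genes (28.6% of all genes tested). EuMycC2ko239 did so for 14 (16.7%) and EuMycC2ko245 for 6 (14.8%). Of the 23 T cell genes tested, 9 rose (against 1.14% of all genes) and none fell, with a median log2 fold change of 2.58 beside -0.03 over all genes tested, and none was called by the QLF. Without EuMycC2ko215 only *Zap70* of these 9 kept its LRT call. *Lat*, an adaptor of the T cell receptor, was at 482 CPM in EuMycC2ko215 and at 2.71 to 11.5 CPM in the other 6 lymphomas (FDR 0.00170 by LRT and 0.140 by QLF). *Tcf7*, a T cell factor that answers Wnt signals, was at 210 CPM there, 24.0 CPM in EuMycC2ko239 and 1.57 to 13.9 CPM in the rest (LRT FDR 0.00450). *Gata3*, a T helper cell factor, was at 10.2 CPM there and at 0.918 CPM or less elsewhere (LRT FDR 0.00296). Summed over the list, the T cell genes stood at 218 to 329 CPM in the controls, 465 CPM in EuMycC2ko239, 351 CPM in EuMycC2ko245 and 2985 CPM in EuMycC2ko215.

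*Zap70* was the exception among the calls on that list. This kinase couples the T cell receptor to its targets and is also found in some B cell leukaemias. It was at 8.22, 7.36, 28.1 and 4.14 CPM in controls and at 73.6, 74.4 and 66.4 CPM in null tumors (log2 fold change 2.58 ± 0.54, FDR 9.84e-04 by LRT and 0.0554 by QLF). *Cd3d*, a chain of the T cell receptor complex, stood at 84.6 CPM in EuMycC2ko215, at 3.92 and 2.32 CPM in the other two null tumors and at 2.05 CPM or less in controls. The part of T cells in the *Zap70* level was not tested. Without EuMycC2ko215 the log2 fold change of *Zap70* was 2.58 and its LRT call held.

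A single null tumor lay outside the control range for 17 higher and 5 lower genes, some of which follow. This count leaves out genes highest in EuMycC2ko215 for which another null tumor also passed the controls. As given above, 65 of the 170 higher genes were over 4-fold higher in EuMycC2ko215 than in each other lymphoma. Besides *Lat*, EuMycC2ko215 alone was outside the controls for *Mtus2* (15.6 CPM against 0 to 0.437 CPM in controls) and *6330407J23Rik* (8.20 CPM, with 2 reads in all 4 controls). It was also alone below the controls for *Dlgap3*, at 0 CPM, although EuMycC2ko239 and EuMycC2ko245 were at 0.501 and 0.505 CPM and the lowest control at 0.212 CPM. EuMycC2ko239 alone was outside for *Zfp536* (1.42 CPM, with no read in the other 6 lymphomas), *B230217C12Rik* (1.17 CPM) and *Camk2b*. *Camk2b*, a calcium-dependent kinase gene, ranged from 3.78 to 139 CPM in controls and was at 2.50 CPM in that tumor. EuMycC2ko239 was also alone below the controls for *Dcpp2*, but only by a difference under the floor. It was at 0.167 CPM and EuMyc614 at 0.175 CPM, while EuMyc743b, EuMyc829 and EuMyc835 were at 9.58, 11.4 and 141 CPM. For EuMycC2ko245 the single gene was *Prol1*, at 184 CPM against 1.17 to 4.96 CPM in the other 6 lymphomas (FDR 0.0236 by LRT and 0.237 by QLF).

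Among the higher genes called by the QLF, 2 were shared by EuMycC2ko215 and EuMycC2ko239 only. *1300014I06Rik* was at 1.71 to 4.14 CPM in controls and at 129, 97.3 and 1.72 CPM in null tumors (QLF FDR 0.0369). *Dmwd* was at 2.27 to 10.2 CPM in controls and at 78.3, 42.7 and 9.39 CPM in null tumors (QLF FDR 0.0426). In both genes EuMycC2ko245 was within the control range.

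Several of the strongest lower genes are salivary gland genes, and the cervical nodes lie beside those glands. *Amy1*, salivary amylase, which has close copies that may share its reads, was at 3.24 CPM in EuMyc614, 598, 531 and 1532 CPM in the other 3 controls, and 1.37, 1.75 and 1.31 CPM in null tumors (log2 fold change -8.80 ± 0.89, FDR 1.39e-08 by LRT and 0.0186 by QLF). *Bpifa2*, the parotid secretory protein, was at 0.962 CPM in EuMyc614, 1307, 1071 and 4385 CPM in the other controls, and 0.391, 0.417 and 0.404 CPM in null tumors (log2 fold change -11.99 ± 1.17, QLF FDR 0.0233). EuMyc614 resembled the null tumors far more than the other controls, and its excess over them is a matter of a few CPM at most.

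*Smr3a*, a submandibular gland gene, was at 0.525, 501, 307 and 1136 CPM in controls and 0, 0.167 and 0.101 CPM in null tumors, a pooled ratio of 4070 (95% counting interval 1393 to 19738). *Chia*, an acidic chitinase, was at 0, 112, 90.9 and 522 CPM in controls and 0.195, 0 and 0 CPM in null tumors, where 1 read gave a ratio of 4406 (791 to 174010). *Crisp1* was at 0.175, 14.5, 16.0 and 47.8 CPM in controls and at 0 in all null tumors, and so was at least 164-fold lower, with the null level set at 3 reads over the group. These intervals cover counting error only, and not the spread between tumors. For each of these genes EuMyc743b, EuMyc829 and EuMyc835 are the high tumors, and EuMyc614 is not.

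A list of 19 salivary gland genes, drawn up after these values were seen, held 8 of the 45 lower genes and 3 of the 26 that separated all tumors, out of 17 members tested (0.302% of all genes were called lower). Of the 45 lower genes, 10 were over 4-fold higher in each of EuMyc743b, EuMyc829 and EuMyc835 than in EuMyc614 and all null tumors, a pattern held by 13 of all genes tested. Its summed level was 16.2 CPM in EuMyc614 and up to 8886 CPM in the other controls. EuMycC2ko245 was the highest lymphoma for *Prol1* (184 CPM) and *Klk1* (23.4 CPM). It also held *Car6* (56.5 CPM) and *Pip* (44.4 CPM), which were at 48.9 to 250.3 CPM and 46.4 to 119 CPM in EuMyc743b, EuMyc829 and EuMyc835, while its *Amy1* was at 1.31 CPM and its *Bpifa2* at 0.404 CPM. *Dcpp2* and its relatives *Dcpp1* and *Dcpp3* are close copies, and counts may be split among them. Without EuMyc743b, EuMyc829 and EuMyc835 together, which leaves EuMyc614 as the only control and takes its spread to be that of the other groups, the log2 fold change of *Amy1* was -1.13 and was not called. The part of gland tissue in the lower calls was not tested further.

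**Figure D4:**
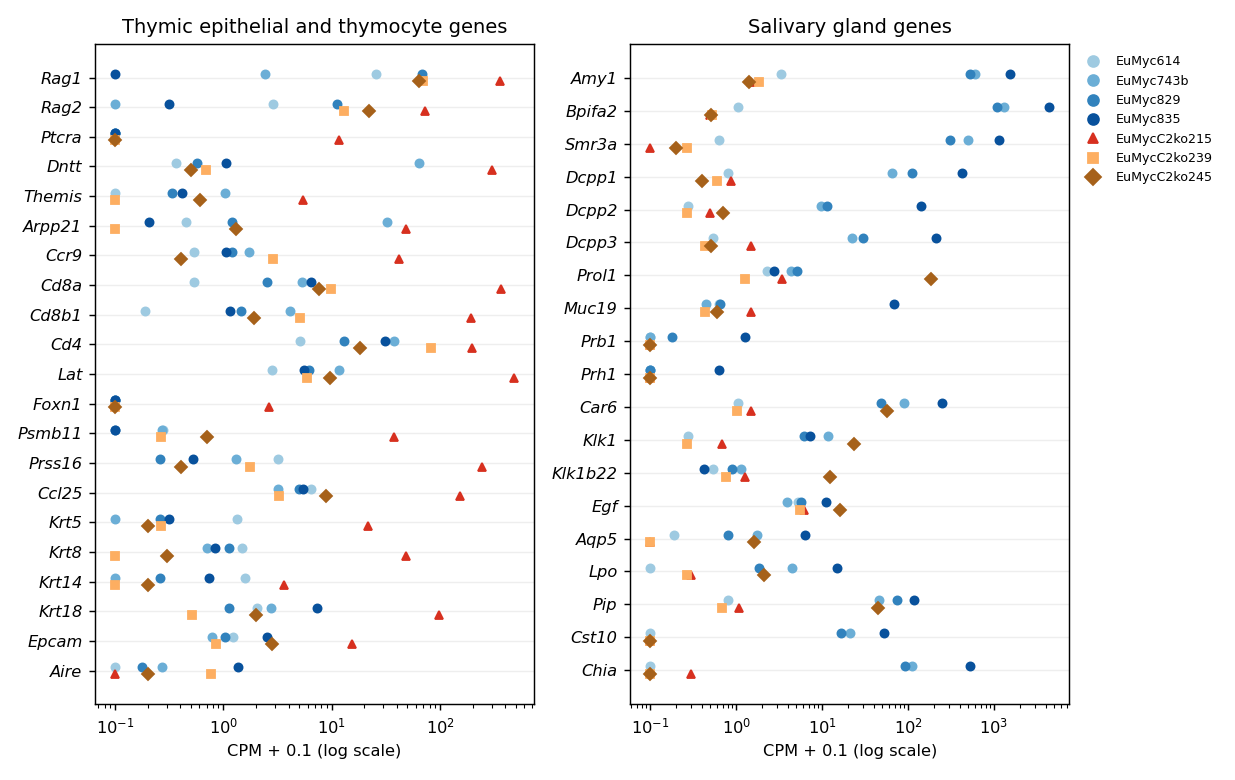
Levels of thymic (left) and salivary gland (right) genes in the 7 lymphomas, in CPM plus 0.1 on a log scale, with 1 point per tumor and symbols as in the legend. EuMycC2ko215 is the highest tumor for all thymic genes shown except *Aire*, and EuMyc743b, EuMyc829 and EuMyc835 hold *Amy1*, *Bpifa2* and *Smr3a* at 307 CPM or more.

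Most B cell genes were not called. None of 17 B cell identity genes was called (median log2 fold change -0.00), nor any of 10 pre-B cell genes (0.25) and 10 MHC class II genes (0.50). *Cd24a*, a surface protein of immature B cells, was at 1017 to 1303 CPM in controls and 806 to 1220 CPM in null tumors. The log2 fold changes of the pre-B genes ran from -3.23 for *Igll1* to 3.34 for *Rag2*. *Igll1* was at 95.1 CPM in EuMyc743b, 1.59 to 2.05 CPM in the other controls and 1.09 to 5.35 CPM in null tumors. *Rag2* was at 0 to 11.0 CPM in controls and at 72.7, 12.9 and 21.9 CPM in null tumors. The pre-B genes *Myb* and *Cd93* were at 211 to 393 CPM and 93.2 to 166 CPM in controls, and at 198 to 300 CPM and 225 to 279 CPM in null tumors. All 3 null tumors exceeded the controls for *Cd93*, yet its LRT FDR was 0.0934.

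MHC class II genes varied within the control group instead. *Cd74*, the invariant chain, was at 157 CPM in EuMyc743b and at 901 to 1962 CPM in the other controls, beside 853 to 1650 CPM in null tumors. *H2-Eb1* was at 61.5 CPM in EuMyc743b and at 208 to 542 CPM in the other controls, beside 324 to 648 CPM in null tumors. For both genes EuMyc743b was the lowest lymphoma, and neither was called with it or without it.

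Of 12 mature and germinal center B cell genes, 1 rose (1.14% over all genes), and the median log2 fold change was 0.73. *Cr2*, the complement receptor of mature B cells, was at 0.0855 to 1.17 CPM in controls and at 3.52, 56.8 and 2.32 CPM in null tumors (FDR 0.0198 by LRT and 0.170 by QLF), so that EuMycC2ko239 carried it. *Irf4* and *Xbp1*, factors of plasma cells, were at 94.3 to 213 CPM and 30.1 to 97.5 CPM in controls and at 124 to 152 CPM and 57.5 to 87.7 CPM in null tumors. The ranges of *Irf4* and *Xbp1* overlap between genotypes. Other uncalled members moved more. *Slamf1* was at 0.0855 to 2.97 CPM in controls and at 6.25, 10.9 and 4.44 CPM in null tumors (LRT FDR 0.0794). *Igj* was at 4.29 to 40.8 CPM in controls and at 12.7, 124 and 148 CPM in null tumors (LRT FDR 0.102). The lowest log2 fold change on the list was -0.60, for *Cd38*. *Cr2* kept its LRT call without EuMycC2ko215, EuMycC2ko245 or EuMyc835. The call was lost without EuMycC2ko239, where the log2 fold change fell from 4.84 to 2.02, and also without EuMyc614, EuMyc743b or EuMyc829.

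Genes of the caspase-2 pathway other than *Casp2* itself were not called. Of 14 tested caspase and PIDDosome genes *Casp2* was the only one (LRT), and the median log2 fold change was 0.02. *Lrdd*, which encodes Pidd1, was at 54.0 to 76.4 CPM in controls and 63.7 to 71.7 CPM in null tumors, and *Cradd*, which encodes Raidd, at 8.21 to 8.57 CPM and 6.51 to 11.5 CPM. *Casp8* was at 82.8 to 114 CPM and 96.3 to 113 CPM. Their levels overlapped between genotypes.

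None of 20 p53 pathway genes, 16 Bcl2 family genes or 21 mitosis genes was called, with medians of 0.11, 0.36 and -0.19. *Trp53* was at 265, 276, 74.5 and 286 CPM in controls and 211, 302 and 90.5 CPM in null tumors, so that 1 tumor of each genotype was low. *Trp53inp1*, a p53 target, was at 76.7 to 460 CPM and 114 to 228 CPM. The survival gene *Mcl1* was at 404 to 646 CPM in controls and 440 to 499 CPM in null tumors. *Bax*, which opens the mitochondrial membrane in apoptosis, was at 116 to 147 CPM and at 391, 162 and 127 CPM (LRT FDR 0.140). Of the proliferation genes, *Mki67* was at 1182 to 1437 CPM in controls and at 567, 1272 and 1124 CPM in null tumors, and *Top2a* at 946 to 1284 CPM and 682, 1363 and 982 CPM. EuMycC2ko215 was the lowest tumor for both.

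Of 13 genes of the Myc network, 1 rose (1.14% over all genes). *Mycl1*, a Myc paralog, was at 0 to 1.28 CPM in controls and 2.73, 3.84 and 0.909 CPM in null tumors (FDR 0.0341 by LRT and 0.302 by QLF). *Myc* was at 1238 to 1914 CPM in controls and at 498, 1346 and 1729 CPM in null tumors, and its partner-family gene *Mlxip* was at 162 to 324 CPM and 164 to 289 CPM. The low *Myc* value is again that of EuMycC2ko215. None of 20 ribosome biogenesis genes was called (median -0.05), with the nucleolar genes *Ncl* at 3060 to 3918 CPM and 3490 to 3619 CPM and *Npm1* at 1187 to 1779 CPM and 1320 to 1473 CPM.

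All 20 interferon-stimulated genes were higher on average in null tumors, with a median log2 fold change of 1.41, but none was called by the LRT (smallest FDR 0.0838) or the QLF. EuMycC2ko239 lay above every control for 19 of the 20 (16.7% of all genes tested), EuMycC2ko215 for 15 (28.6%) and EuMycC2ko245 for 5 (14.8%). *Bst2*, which tethers viruses to cells, was at 67.7 to 87.9 CPM in controls and at 221, 102 and 111 CPM in null tumors. EuMycC2ko215 was the highest of the null tumors for *Bst2*.

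The study named Rap1 and Wnt signaling from these same tumors, so that the counts here are no independent evidence. Its Rap1 result came from pathway enrichment tests, also in a comparison with Casp2-null neuroblastomas. That is a measure unlike the count of called genes on a list given here. For Wnt signaling, the study also reported increased *Tcf7* and *Lef1* by quantitative PCR in different EμMyc/Casp2-/- tumors. None of 33 Rap1 pathway genes was called, with a median log2 fold change of -0.10. *Tln1* was at 303 to 416 CPM in controls and 280 to 433 CPM in null tumors, and *Rasgrp2*, a Rap1 activator, at 137 to 507 CPM and 184 to 431 CPM. Of 20 Wnt and Tcf/Lef genes 2 rose (1.14% over all genes), *Tcf7* (above) and the Wnt modulator *Dact2*, which was at 0 to 0.342 CPM in controls and at 7.62, 0.167 and 0.707 CPM in null tumors (LRT FDR 0.00959). Both were highest in EuMycC2ko215, and neither was called without it.

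Markers of other cells of the node gave no called member. The lists were 17 macrophage, 12 neutrophil, 9 dendritic cell, 7 NK cell, 3 erythroid, and 15 endothelial and stromal genes, with median log2 fold changes of 0.05, -0.34, 0.43, 1.12, 2.54 and -0.18 in that order. *Lyz2* of macrophages was at 221 to 440 CPM in controls and at 872, 576 and 104 CPM in null tumors, and *Mpeg1* at 78.7 to 175 CPM and at 159, 177 and 58.0 CPM. The neutrophil genes *S100a8* and *S100a9* were highest in EuMyc743b, at 153 and 221 CPM, and the other lymphomas held 4.57 to 52.8 CPM and 6.93 to 80.5 CPM. The collagen genes *Col1a1* and *Col3a1* of stroma were at 98.5 to 397 CPM and 129 to 636 CPM in controls and at 98.3 to 225 CPM and 124 to 329 CPM in null tumors.

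Of the 3 erythroid genes tested, *Beta-s* and *Alas2* stood out in EuMycC2ko245. The beta globin entry *Beta-s* was at 630 CPM there and at 10.7 to 55.7 CPM in the other 6 lymphomas, and *Alas2*, the haem synthesis enzyme of red cells, at 41.3 CPM against 0.918 to 3.42 CPM. The LRT FDRs were 0.163 and 0.118. The other gene tested, *Epor*, went the opposite way. It was at 0.849 to 3.17 CPM in controls and at 0.781, 0.751 and 0.404 CPM in null tumors (log2 fold change -1.36, LRT FDR 0.376). Of the dendritic and NK cell genes with the highest levels, *Ccr9* followed EuMycC2ko215 (41.6 CPM against 2.75 CPM at most) and is also a thymocyte gene. *Flt3* was at 1.81 to 11.4 CPM in controls and 2.15 to 7.26 CPM in null tumors, *Ccl5* at 0.787 to 5.84 CPM and 5.45 to 14.9 CPM, and *Nkg7* at 0 to 2.44 CPM and 2.12 to 3.91 CPM.

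No chromosome passed the test after adjustment, which a single chromosome could not do with 7 tumors, and chromosome 6 alone had groups that did not overlap. For each tumor the median log2 difference from the mean of the 7 lymphomas was taken over the genes of each of 20 chromosomes (12677 genes in all). An exact permutation test over the 35 ways to choose 3 of 7 tumors gave an unadjusted two-sided p of 0.0286 for chromosome 6, the smallest this design allows, and an FDR of 0.571 over the 20 chromosomes. On chromosome 6 the medians were -0.03, -0.01, -0.11 and -0.01 in controls and 0.23, 0.01 and 0.06 in null tumors, so that all null tumors were higher by small amounts. With genes over 10 CPM only, no chromosome had a p under 0.05.

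Single tumors did differ by chromosome. Over all tumors and chromosomes, 10 values deviated by over 0.3 on the log2 scale, 7 in EμMyc tumors and 3 in null tumors. Chromosome 13 was at 0.31, 0.24, 0.08 and -0.47 in the controls and 0.02, 0.28 and -0.36 in the null tumors. Chromosome 19 was at -0.44 in EuMyc829 and -0.57 in EuMycC2ko245, and at 0.11 to 0.37 in the other 5 lymphomas. EuMyc743b was highest for chromosomes 15 (0.41) and 18 (0.36), with EuMyc829 next on chromosome 18 (0.18). The tumors that were low for chromosome 13 or 19 came from both genotypes, and DNA copy number was not measured in these libraries.

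**Figure D5:**
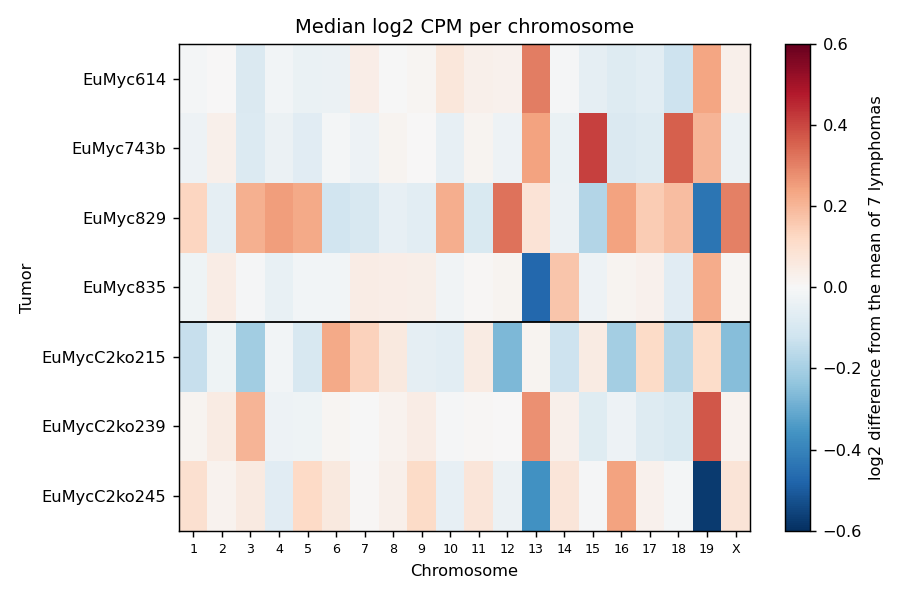
Median log2 CPM of the genes on each chromosome (x axis) in each lymphoma (y axis; EμMyc above the line, EμMyc/Casp2-/- below), as the difference from the mean of the 7 lymphomas on a colour scale from -0.6 to 0.6. Chromosome 19 is lowest in EuMycC2ko245, at -0.57, and EuMyc829, at -0.44.

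Genes of the Y chromosome were low in 1 or 2 of the 6 lymphomas from males. *Kdm5d* was at 59.7, 31.6, 1.73 and 51.5 CPM in the controls and 61.3 and 53.1 CPM in the 2 male null tumors. *Eif2s3y* followed it, at 5.12 CPM in EuMyc829 and 67.7 to 145 CPM in the other males, while *Ddx3y* was also low in EuMyc835, at 7.33 CPM. *Xist*, expressed from the inactive X chromosome of females, was at 1666 CPM in EuMycC2ko215 and at 1.40 CPM or less in the other 6, which matches the sexes the study lists.

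Genes near *Casp2* were examined because alleles flanking a targeted gene can differ between strains. *Casp2* lies at chr6:42264902-42282508 (GRCm38), and 11 genes within 1 Mb of it were tested. None was called. *Ephb6*, a kinase-like receptor, came closest, at 45.7 CPM in EuMycC2ko215 and 0.303 to 2.71 CPM in the other 6 lymphomas (LRT FDR 0.0767). *Trpv6* was at 1.37 CPM in EuMycC2ko215, with 1 read in the other 6, and *Fam115c* at 8.01 CPM beside 0.700 to 2.31 CPM. *Pip*, a salivary gland gene, ranged from 0.584 to 119 CPM. The remaining 7 were *Zyx* (9.39 to 26.4 CPM over the 7 lymphomas), *Arhgef5*, *Fam115a*, *Gstk1*, *Clcn1*, *Fam131b* and *Epha1*, the last 6 at 5.34 CPM or less. On the whole of chromosome 6, 19 of 736 tested genes were called (2.58%, the highest share of the 20 chromosomes, beside 1.44% of all genes tested). Among them were *St7*, *Krba1* and *Gm16039*, which lie outside that window and kept their LRT calls without EuMycC2ko215. The T cell genes *Cd4*, *Cd8a* and *Cd8b1* were also among them, and their calls did not hold without that tumor.

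The neuroblastomas carry the same *Casp2* deficiency, and none of the lymphoma calls was made there in the same direction. Of the 170 higher genes, none was called higher in the null neuroblastomas than in their controls and 1 was called lower, and none of the 45 lower genes was called in either direction (LRT, 0.188% of tested genes higher and 0.625% lower). The median log2 fold change of the 66 higher genes that separated all lymphomas was 2.32 in the lymphomas and 0.09 in the neuroblastomas, and that of the 26 lower genes -2.55 and -0.04. An interaction of genotype and tumor type, which tests whether the change differs between them, was called in the direction of the lymphoma change for 26 of the 66 and 12 of the 26 (LRT), and for 4 and 3 by the QLF, beside 136 genes (0.914%) and 8 genes (0.0538%) over all tested. These genes were chosen by their change in the same lymphomas, so the counts are a description and no test of a difference between the tumor types.

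*Prdm16* changed by -0.51 ± 0.37 in the neuroblastomas, and the difference between the tumor types was 5.26 (FDR 2.07e-14 by LRT and 7.60e-04 by QLF). *Pitpnm2* changed by 0.39 ± 0.34, and the difference was -4.58 (FDR 4.00e-13 by LRT and 0.00125 by QLF). The log2 fold change of *Casp2* itself was -1.35 ± 0.27 in lymphoma and -0.79 ± 0.25 in neuroblastoma, where it was not called (LRT FDR 0.101), and the difference of -0.57 was not called either (LRT FDR 0.729). For *Zap70* and *Dgka* the LRT FDRs of the difference were 0.109 and 0.0696.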

How the data were processed

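The series holds RNA sequencing of 15 mouse tumors, 7 of them lymphomas. Per the labels, the authors checked reads with FastQC, aligned them with STAR to mm10 (GRCm38) and deposited counts of reads per gene for each tumor; versions are not given in the sources used here. The column of second-strand counts was used, and summary entries that name no gene were left out of totals. The test took 14880 of 23329 genes, those with at least 3 tumors over 1 CPM. A model with 4 groups was fitted over all 15 tumors in edgeR 4.0.16 (R 4.3.3) with TMM normalization. The study also used edgeR, with tumors grouped by tumor type and genotype, and its text does not name TMM. Genes were called at a change over 2-fold and an FDR under 0.05 (Benjamini-Hochberg adjustment) by the likelihood ratio test (LRT), with the quasi-likelihood test (QLF) beside it. The LRT takes each dispersion as known and calls more genes. The fitting code was tested on simulated data, where the LRT called more unchanged genes than its FDR threshold allows and the QLF did not, so counts of LRT calls hold more false calls than the threshold states.

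A null tumor lay outside when it was above, or below, all 4 EμMyc tumors in CPM. The chromosome medians were compared by an exact permutation test over tumors. Counting intervals and floors have a confidence level of 95% and cover counting error only. No pair of lymphomas of the same genotype agreed within sampling noise (chi-square per degree of freedom 45.0 to 76.0), and each tumor came from a different mouse. The labels speak of 4 tumors per genotype, and 3 EμMyc/Casp2-/- lymphomas were analysed here. The study sequenced another EμMyc/Casp2-/- lymphoma and removed it as an outlier that correlated poorly with the other replicates. Statements about all 3 null tumors therefore cover only those that remained.

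Named genes were *Casp2*, the 10 higher and 10 lower called genes with the smallest LRT FDR among those with all null tumors outside, up to 5 for each null tumor outside alone, every gene called by the QLF, up to 4 called members of each of 20 gene lists or, with fewer than 2 called, the 2 most abundant, and genes within 1 Mb of *Casp2*. Others were chosen after their values were seen. A few genes that the rule names are not reported here. The gene lists and the rules were chosen with earlier results of these data known, and the lists of salivary gland, thymocyte, thymic epithelial and MAPK output genes after the values were seen. Alternatives were DESeq2 1.42.0, its size factors in edgeR, other filters, counts of either or the first strand, sex as a covariate, the lymphomas alone, and fits without single tumors or sets of tumors.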

Additional observations from a re-analysis of the deposited data

Results flagged for a closer look

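In 10 of the 85 named genes reported here 1 EμMyc tumor stood apart from the other 3 by more than Dixon's limit for 4 samples. Chance passes that limit in about 1 of 20 groups of normally distributed values, which CPM need not be. *6330407J23Rik*, *B230217C12Rik* and *Trpv6* passed it because the other 3 controls held no read. The share over all genes was not counted, so the 10 are no measure of an excess. EuMyc743b was the high tumor for *Prdm16* (1.11 CPM, others 0.350 to 0.472 CPM), *Coro2b* (31.2 CPM, others 8.19 to 9.34 CPM), *S100a9* (221 CPM, others 6.93 to 41.1 CPM) and *S100a8* (153 CPM, others 4.57 to 26.8 CPM). It also held the only control reads of *6330407J23Rik* (0.171 CPM) and *B230217C12Rik* (0.0855 CPM). EuMyc829 was high for *Zap70* (28.1 CPM, others 4.14 to 8.22 CPM), low for *Trp53* (74.5 CPM, others 265 to 286 CPM) and alone in *Trpv6* (0.0787 CPM). EuMyc835 was high for *Dcpp2* (141 CPM, others 0.175 to 11.4 CPM).

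The interaction of genotype and tumor type was called by the LRT for 29 of the 85 named genes reported, beside 0.914% of all genes tested. Many of these were named for their change in the same lymphomas, so the count is a description and no test. The values here are differences of log2 fold changes, lymphoma minus neuroblastoma. Among genes with all null lymphomas above the controls, the difference was 5.26 for *Prdm16*, 5.08 for *Ccdc30*, 4.01 for *Vill*, 3.54 for *Ttbk1*, 3.48 for *1110032F04Rik*, 2.59 for *Tmem136*, 2.49 for *AW555464*, 2.24 for *Krba1*, 2.18 for *Tmem181b-ps*, 2.04 for *Scg3* and 1.61 for *Kdm5b*. It was 2.0 for the uncalled *Cd93*, which fell in the neuroblastomas. Among genes carried by EuMycC2ko215, or by it and EuMycC2ko239, the difference was 5.39 for *6330407J23Rik*, 5.03 for *Mtus2*, 4.70 for *Lat*, 4.62 for *Tcf7*, 4.37 for *1300014I06Rik*, 4.29 for *Dact2* and 2.89 for *Dmwd*. It was 5.26 for *Prol1*, carried by EuMycC2ko245.

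Among lower genes the difference was -4.58 for *Pitpnm2*, -2.52 for *St7* and -1.83 for *Gm16039*. The salivary gland genes gave -10.77 for *Bpifa2*, -10.38 for *Smr3a*, -9.81 for *Chia*, -9.27 for *Amy1* and -6.48 for *Dcpp2*. *Crisp1*, which is not on the salivary gland list, gave -11.25. EuMyc743b, EuMyc829 and EuMyc835 were the high tumors for all of these, and differences of genes at 0 depend on the prior count of the fit. By the QLF 8 genes in all had an interaction.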

How the results depend on the processing

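The direction of change held for most named genes under the alternatives, while the number of calls did not. Over called named genes and alternatives, 603 values kept their call, 151 lost it and 5 reversed. The QLF gave 14 higher and 7 lower genes, 18 with all tumors separated, 21 of 42 named calls and 8 interactions, against 170, 45, 92, 42 and 136 by the LRT. With sex as a covariate there were 72 higher genes and 76 interactions. With the lymphomas alone the LRT gave 21 higher, 14 lower, 24 separated and 22 named calls, and the QLF 0 higher, 1 lower, 1 separated and 1 named call, *Pitpnm2*. Leaving out 1 tumor gave 57 to 458 higher genes, 18 to 88 lower genes and 64 to 319 interactions, with the fewest higher and lower genes without EuMycC2ko215 and the most without EuMycC2ko245, and with 266 higher and 83 lower genes without EuMycC2ko239. Sets of tumors were left out after seeing the data. Without EuMyc743b, EuMyc829 and EuMyc835 there were 118 lower genes, 249 separated genes and 16 named calls, and the lone control is assumed to vary like the other groups. Without EuMycC2ko215 and EuMycC2ko245 there were 110 higher, 12 lower and 23 named calls, and the lone null tumor is likewise assumed to vary like the other groups. The log2 fold change of *Zfp536* was 0 without EuMycC2ko239. The sign reversed without EuMycC2ko239 for *B230217C12Rik* (-1.71), without EuMycC2ko245 for *Prol1* (-0.69), and without EuMycC2ko215 and EuMycC2ko245 for *Lat* (-0.14), *Prol1* (-1.56) and *Dact2* (-0.079). The cause was not tested, other than that fewer tumors were fitted. With this number of tumors no chromosome could pass the adjustment alone, so the alternatives say nothing of stability there. No paired analysis was possible because the replicate numbers only name the samples. The depth of EuMycC2ko215 limits it to genes over 0.586 CPM at 3 reads.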

Other observations

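Some genes that respond to Ras and MAP kinase signaling were higher in EuMycC2ko215 and EuMycC2ko239 than in every control. A list of 15 genes that respond to this signaling was drawn up after some of their values were seen, so the counts are a description. Of these, 6 rose by the LRT (1.14% over all genes), 9 were not called, none fell and none was called by the QLF, with a median log2 fold change of 1.65 beside -0.03 over all genes. *Etv4*, a transcription factor induced by this pathway, was at 0, 0.171, 0.0787 and 0.531 CPM in controls and at 36.3, 17.0 and 0.404 CPM in null tumors (FDR 1.36e-04 by LRT and 0.0591 by QLF). Its relative *Etv5* was at 1.22 to 13.1 CPM in controls and 58.4, 37.8 and 6.46 CPM in null tumors. *Dusp4*, a phosphatase that removes the activating phosphates from MAP kinases, was at 0 to 0.684 CPM in controls and 14.5, 39.2 and 0.202 CPM in null tumors. The feedback inhibitors *Spry2* and *Spry4* were at 1.02 to 2.57 CPM and 0.956 to 3.59 CPM in controls, at 19.9 and 28.7 CPM in EuMycC2ko215, at 10.9 and 30.9 CPM in EuMycC2ko239, and at 1.01 and 1.51 CPM in EuMycC2ko245.

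EuMycC2ko239 lay above every control for 11 of the 15 genes (16.7% of all genes tested), EuMycC2ko215 for 10 (28.6%) and EuMycC2ko245 for 1, *Spred2* (14.8%). Without EuMycC2ko215 the LRT calls of *Etv4*, *Dusp4* and *Spred2* were kept and those of *Etv5*, *Spry2* and *Spry4* were not. The log2 fold changes of *Etv5*, *Spry2* and *Spry4* in that fit were 2.06, 1.83 and 2.94 (LRT FDR 0.408, 0.225 and 0.0663). *Ccnd1* and *Epha2*, also on the list, overlapped between the genotypes, at 242 to 369 CPM and 2.65 to 23.3 CPM in controls and 240 to 305 CPM and 1.72 to 13.3 CPM in null tumors.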
